A study of Mus musculus with 28 samples.

Results

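H3K9Ac, histone H3 acetylated at lysine 9, was compared between MC38 and B16 tumor cells that both lacked Setdb1. The comparison takes the 6 H3K9Ac libraries labelled with a Setdb1 guide, 3 from MC38 and 3 from B16, out of the 28 samples of the series. MC38 Setdb1 KO cells are a mouse colon adenocarcinoma line, and B16 Setdb1 KO cells are the mouse melanoma line B16OVA, a B16 derivative that expresses ovalbumin. Both had been transduced with a pCRISPR-v2-puro construct carrying a guide against Setdb1 and were grown with puromycin. The MC38 control and B16 control libraries, 3 each, carried the construct empty and are set beside the KO libraries, with which they share no library. The labels do not say that the cells were single clones, nor that the numbered replicates were separate cultures, so the spread that p-values rest on may be technical. The series was designed around the marks on loci where exons are joined to transposable elements.

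Acetylation of lysine 9 on histone H3 lies around the start sites and enhancers of active genes, and removing it or replacing it with methylation goes with silencing. Setdb1 is a methyltransferase that places H3K9me3, the trimethylated and repressive form of the same lysine, on transposable elements and on some genes. A melanoma line and a colon carcinoma line descend from different lineages, the pigment cell of the neural crest and the gut epithelium, and active chromatin at lineage genes is a known mark of cell identity. The comparison therefore asks which genes carry active chromatin in only one of these Setdb1-deficient lines.

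The deposited values are reads in islands, stretches of the genome enriched for reads. Values below are island reads per 1000000 counted reads (RPM) after TMM scaling, in a region reaching 2 kb to either side of whichever gene end held more H3K9Ac. All these regions have the same length, so levels may be set side by side between genes. A value of 0 means that no island was called in that region, not that no read was present or that the rest of the gene had no island, and no fold change is given where a line had no island in any of its 3 KO libraries. The KO libraries held 28453371 to 78087809 island reads, and the control libraries 33917255 to 69359709. Actb, the cytoskeletal actin gene active in all cells, had 77.2, 73.2 and 65.3 RPM in MC38 KO and 70.3, 86.5 and 79.8 RPM in B16 KO libraries. At the 3′ end of Setdb1 itself, the end with more reads, the values were 55.4, 68.5 and 63.1 RPM in MC38 KO and 57.6, 78.4 and 73.7 RPM in B16 KO. Over the whole Setdb1 gene the lines were separated, with 116, 127 and 115 RPM in MC38 KO and 73.4, 84.3 and 93.5 RPM in B16 KO libraries (edgeR adjusted p with 12 libraries = 0.00844). Acetylation need not change at a gene cut by a guide, and the knockout is therefore not checked by these values.

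Pigment cell genes carried less H3K9Ac in MC38 KO than in B16 KO cells at most measured members. Of the 25 melanocyte identity genes listed, 24 had measurable islands, and at 21 of them all 3 MC38 KO libraries lay below all 3 B16 KO libraries, while none lay above. Over all 30978 measured gene ends, 18.9% lay below in this way and 14.6% lay above. The summed level of the 24 genes was 387 to 425 RPM in MC38 KO libraries and 1406 to 1594 RPM in B16 KO libraries. At 9 of the 24 genes no MC38 KO library had an island. EdgeR's quasi-likelihood test with all 12 H3K9Ac libraries called 14 of the 24 lower and none higher in MC38 KO, where 6.67% of all 31667 gene ends tested were called lower and 5.51% higher. With B16 KO library 1 left out it called 9 of the 24 lower.

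Tyr encodes tyrosinase, the rate-limiting enzyme of melanin synthesis. It had no island in MC38 KO and 91.5, 105 and 103 RPM in B16 KO libraries. Tyrp1 and Dct encode the other enzymes of that pathway. Dct had no island in MC38 KO and 75.5, 81.6 and 88.0 RPM in B16 KO libraries. Tyrp1 had none in MC38 KO and 97.0, 105 and 85.1 RPM in B16 KO libraries at its 3′ end, the end with more reads. Its 5′ end also carried islands in B16 KO libraries only. Beside Tyr, Tyrp1 and Dct, genes with no island in MC38 KO included Rab38 (melanosome trafficking), Oca2 (melanosome ion transport), Gpr143 (a melanosome receptor), Bace2 (a protease that acts on the melanosome protein Pmel) and Kit (the receptor for stem cell factor). In B16 KO libraries these 5 genes averaged between 27 and 66.3 RPM.

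The promoters of the pigment enzymes are shown because they lie inside regions acetylated in B16 KO libraries only, and those of Ptgs2 and Omd because they lie inside regions acetylated in MC38 KO libraries only. Each is the stretch of 250 bases before the RefSeq gene start (GRCm38.p6), 5′ to 3′ on the gene's strand. Capitals mark CATGTG on either strand (CACATG on the other), a variant of the E-box that Mitf, the pigment cell transcription factor, is known to bind.
Tyr, chr7:87493513-87493762, minus strand: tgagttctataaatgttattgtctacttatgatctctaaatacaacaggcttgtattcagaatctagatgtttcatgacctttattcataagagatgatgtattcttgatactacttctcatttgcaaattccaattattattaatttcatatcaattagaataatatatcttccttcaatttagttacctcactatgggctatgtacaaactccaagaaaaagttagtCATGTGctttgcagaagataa
Tyrp1, chr4:80833963-80834212, plus strand: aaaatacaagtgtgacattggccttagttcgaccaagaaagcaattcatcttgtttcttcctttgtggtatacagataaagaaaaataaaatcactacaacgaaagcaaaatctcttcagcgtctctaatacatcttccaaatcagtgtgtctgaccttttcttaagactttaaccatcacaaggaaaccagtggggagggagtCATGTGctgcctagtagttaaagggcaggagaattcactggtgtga
Dct, chr14:118052247-118052496, minus strand: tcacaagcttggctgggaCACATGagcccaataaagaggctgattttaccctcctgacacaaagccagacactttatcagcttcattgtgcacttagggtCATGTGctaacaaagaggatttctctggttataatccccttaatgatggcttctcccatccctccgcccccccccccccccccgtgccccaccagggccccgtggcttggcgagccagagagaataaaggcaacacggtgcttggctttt
Ptgs2, chr1:150099781-150100030, plus strand: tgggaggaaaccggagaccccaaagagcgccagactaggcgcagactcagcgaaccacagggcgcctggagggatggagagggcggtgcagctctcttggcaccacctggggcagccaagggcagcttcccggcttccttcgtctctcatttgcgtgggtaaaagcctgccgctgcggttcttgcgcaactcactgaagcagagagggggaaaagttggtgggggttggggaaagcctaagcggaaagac
Omd, chr13:49582212-49582461, plus strand: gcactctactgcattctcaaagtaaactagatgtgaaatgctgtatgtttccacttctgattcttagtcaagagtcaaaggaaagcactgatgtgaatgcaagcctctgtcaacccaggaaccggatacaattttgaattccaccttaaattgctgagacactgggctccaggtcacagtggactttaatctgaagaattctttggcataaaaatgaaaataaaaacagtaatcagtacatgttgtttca
CATGTG stood 21 bases before the start of Tyr, 46 before Tyrp1, and 232 and 150 before Dct, and its letters were not in the windows of Ptgs2 and Omd. It was present in 13.2% of the 523 promoters of genes whose measured end had islands in MC38 KO only, in 12.4% of the 814 of genes with islands in B16 KO only, and in 12.2% of all 27025 promoters in the table. TGANTCA, which includes the AP-1 element, was in 10.1%, 6.14% and 6.87% of the same 3 sets. Promoters of both kinds of line-specific genes were poorer in CpG than those of genes with islands in all 6 KO libraries, with medians of 5, 5 and 14 CpG per 250 bases. These are descriptions of letters and not of bound factors.

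The remaining melanocyte genes had islands in at least 1 MC38 KO library. Sox10, a neural crest transcription factor, had 44.2, 30.5 and 28 RPM in MC38 KO and 79.6, 102 and 88.4 RPM in B16 KO libraries (log2 −1.40, SE 0.19, limma adjusted p = 0.026). Erbb3, a neuregulin receptor, had 29.2, 17.8 and 24.4 RPM in MC38 KO and 65.7, 72.0 and 58.6 RPM in B16 KO libraries (log2 −1.46, SE 0.21, limma adjusted p = 0.026). Pmel, the fibril protein of the melanosome, had 45.7, 42.8 and 44.8 RPM in MC38 KO and 65.9, 67.2 and 71.4 RPM in B16 KO libraries (log2 −0.61, SE 0.11, limma adjusted p = 0.037). At these 3 gene ends the groups did not overlap, and edgeR with 12 libraries called Erbb3 and Pmel but not Sox10 (adjusted p = 0.418). Over the whole gene Sox10 and Pmel were separated too, but Erbb3 overlapped. There Erbb3 had 34.3, 25.6 and 48.1 RPM in MC38 KO and 50.5, 38.2 and 48.6 RPM in B16 KO libraries (edgeR adjusted p with 12 libraries = 0.115). At its end Mitf overlapped: it had 51.7, 55.8 and 51.9 RPM in MC38 KO and 57.7, 48.6 and 88.9 RPM in B16 KO libraries, (limma adjusted p = 0.456). Over the whole Mitf gene, from start to end, the lines were separated, with 117, 303 and 131 RPM in MC38 KO and 403, 678.3 and 409 RPM in B16 KO libraries (edgeR adjusted p with 12 libraries = 0.000727). Trpm1, a melanocyte channel gene, overlapped at its end, with 18.5, 33.8 and 31.7 RPM in MC38 KO and 23.7, 9.22 and 39.9 RPM in B16 KO libraries. Over the whole Trpm1 gene MC38 KO lay below as well, with 70.7, 83.8 and 64.4 RPM in MC38 KO and 146, 173 and 112 RPM in B16 KO libraries (edgeR adjusted p with 12 libraries = 0.000301). Tfap2a, a neural crest factor, was without an island in 2 MC38 KO libraries and in B16 KO library 3 at its end, and overlapped over the whole gene. In the control libraries 19 of the 24 genes lay below in MC38 and none above.

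**Figure D1:**
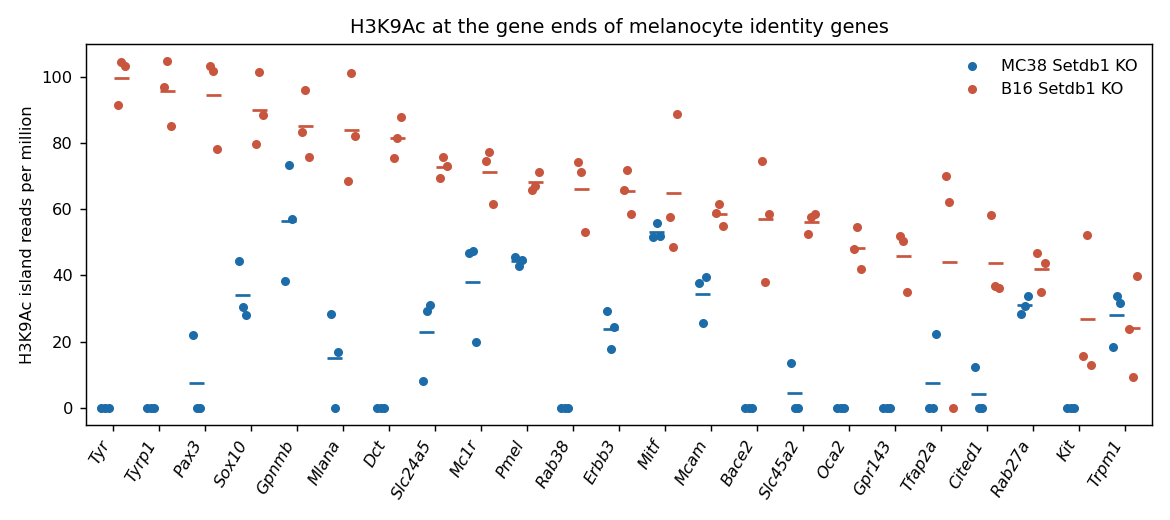
H3K9Ac at the ends of measured melanocyte identity genes, in RPM (vertical axis). Points are the 3 MC38 Setdb1 KO libraries (blue, left) and the 3 B16 Setdb1 KO libraries (red, right) of each gene, and bars are their means. Every MC38 point lies below every B16 point of its gene except at Mitf, Tfap2a and Trpm1, where the points overlap.

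The gut and simple epithelium genes showed no such one-sided pattern, although MC38 is labelled a colon adenocarcinoma. Of 31 listed genes 28 were measured. All MC38 KO libraries lay above all B16 KO libraries at 5 of them (Krt8, Krt18, Krt20, Klf5 and Muc1) and below at 5 (Cdh1, Cldn3, Elf3, Grhl2 and Lgr5), and the summed levels overlapped, at 615 to 689 RPM in MC38 KO and 535 to 651 RPM in B16 KO libraries. Krt8, a keratin of simple epithelia, had 56.2, 75.3 and 62.1 RPM in MC38 KO and 22.7, 19.6 and 37.9 RPM in B16 KO libraries, and it was the only member that limma called (log2 1.31, SE 0.24, adjusted p = 0.042). Its partner Krt18 had 45.8, 50.3 and 40.7 RPM in MC38 KO and 10.2, 0 and 2.01 RPM in B16 KO libraries. Klf5, a transcription factor of dividing epithelium, had 91.0, 43.6 and 67.0 RPM in MC38 KO and 14.2, 0 and 11.5 RPM in B16 KO libraries.

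Other defining epithelial genes overlapped or were lower at the measured end in MC38 KO. Cdx2, the intestinal transcription factor, had 49.0, 29.6 and 28.7 RPM in MC38 KO and 29.3, 30.7 and 30.1 RPM in B16 KO libraries. Cdh1, the gene of E-cadherin, had an island at its end in 1 MC38 KO library (8.99 RPM) and in all 3 B16 KO libraries (9.31, 10.4 and 9.62 RPM). Over the whole Cdh1 gene all 6 libraries had islands and the lines overlapped, at 62.7, 67.8 and 87.0 RPM in MC38 KO and 91.8, 125 and 70.3 RPM in B16 KO libraries. Lgr5, an intestinal stem cell receptor, and Grhl2, an epithelial transcription factor, had no island at the measured end in MC38 KO. In B16 KO libraries Lgr5 had 23.2, 15.7 and 18.3 RPM and Grhl2 27.1, 42.7 and 20.8 RPM there. Over the whole gene Lgr5 had none in MC38 KO either, while Grhl2 had 55.3, 60.9 and 36.6 RPM in MC38 KO and 106, 118 and 118 RPM in B16 KO libraries (edgeR adjusted p with 12 libraries = 0.00908). Hnf4a, Ehf and Prom1 had too few island reads at their ends to be measured there. Over the whole gene Hnf4a overlapped, at 36.5, 8.95 and 51.7 RPM in MC38 KO and 13.3, 6.65 and 28.8 RPM in B16 KO libraries. Prom1 had 4.88, 0 and 3.18 RPM in MC38 KO and 9.20, 12.6 and 15.2 RPM in B16 KO libraries over the whole gene. Single genes of the list differed in both directions. Limma called 1 of its 12 testable members higher in MC38 KO and none lower (2.74% of all gene ends tested were called higher and 3.29% lower), with a median log2 of 0.10 against 0.00 over all gene ends tested. EdgeR with 12 libraries called 1 of the 28 higher and 3 lower.

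More mesenchymal genes lay above than below in MC38 KO, with 9 of 21 measured members above, 3 below and 9 overlapping, where 14.6% of all measured gene ends lay above and 18.9% below. Limma called 2 of 14 testable members higher and 1 lower, and edgeR with 12 libraries 5 higher and 2 lower. Their summed level was 933 to 1016 RPM in MC38 KO libraries and 729 to 780 RPM in B16 KO libraries. Col3a1, a fibrillar collagen, had 39.2, 51.3 and 42.9 RPM in MC38 KO and 6.07, 7.04 and 6.87 RPM in B16 KO libraries (log2 2.64, limma adjusted p = 0.019). Twist1, Prrx1 and Zeb1, transcription factors of mesenchymal cells, had islands at the measured end in MC38 KO only. Twist1 had 69.2, 50.7 and 57.8 RPM in MC38 KO libraries, Prrx1 55.4, 65.4 and 41.6 RPM and Zeb1 22.1, 26.2 and 26.5 RPM. Over the whole gene Prrx1 and Zeb1 had islands in B16 KO libraries too, at 17.2, 28.2 and 15.2 RPM and at 7.58, 30.4 and 3.96 RPM, below all MC38 KO libraries. The related factor Zeb2 went the other way, with 42.4, 47.8 and 17.6 RPM in MC38 KO and 115, 110 and 98.2 RPM in B16 KO libraries (log2 −1.69, limma adjusted p = 0.028). S100a4, a calcium-binding protein of motile cells, was called higher as well (log2 1.07, limma adjusted p = 0.020). In the control libraries the same counts were 9 above and 3 below. Leukocyte and endothelial markers gave no call at gene ends by limma or by edgeR with all 12 libraries. Limma could test only 7 of 15 measured leukocyte and 1 of 4 measured endothelial genes, of which 1 leukocyte and 0 endothelial genes had an unadjusted p under 0.05. The leukocyte sums overlapped at 326 to 393 RPM in MC38 KO and 345 to 367 RPM in B16 KO libraries. Over the whole gene edgeR with 12 libraries called the endothelial genes Emcn (adjusted p = 0.00475) and Vwf (adjusted p = 0.0314) lower in MC38 KO. Pecam1, Cdh5, Kdr, Tek, Tie1 and Erg were not called there.

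**Figure D2:**
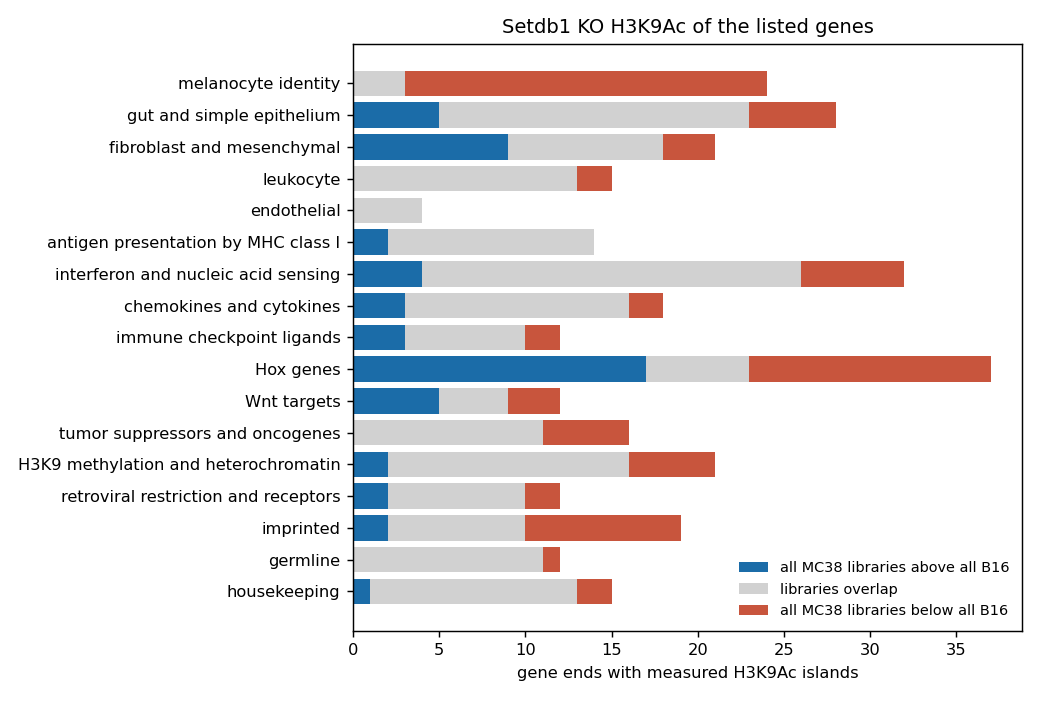
Number of measured gene ends of each gene list (horizontal axis) at which all 3 MC38 Setdb1 KO libraries lay above all 3 B16 Setdb1 KO libraries (blue), overlapped them (grey) or lay below them (red). The melanocyte list has 21 of 24 members below, and the Hox list has 17 above and 14 below of 37.

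Hox genes, which encode the transcription factors of body position in 4 clusters, differed at most members and in a direction that depended on the cluster. Of 37 measured, 17 lay above and 14 below in MC38 KO, against 14.6% and 18.9% of all measured gene ends. All 9 measured Hoxc genes lay above. Of the 9 Hoxb genes 8 lay below, and Hoxb2 overlapped. The Hoxa cluster had 5 above and 2 below among 11, and the Hoxd cluster 3 above and 4 below among 8. Hoxc9 had 98.5, 114 and 106 RPM in MC38 KO and 38.5, 34.1 and 40.6 RPM in B16 KO libraries (log2 1.48, SE 0.13, limma adjusted p = 0.015). At its measured end Hoxb8 had no island in MC38 KO and 66.6, 53.0 and 54.3 RPM in B16 KO libraries. Over the whole gene it had 3.36, 0 and 4.92 RPM in MC38 KO and 15.0, 8.48 and 7.66 RPM in B16 KO libraries. Hoxa9 had 116, 117 and 104 RPM in MC38 KO and 68.4, 63.2 and 56.9 RPM in B16 KO libraries (log2 0.84, limma adjusted p = 0.032), and Hoxd10 had 44.3, 55.2 and 47.0 RPM in MC38 KO and no island in B16 KO.

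Single islands in MC38 KO spanned several neighbours, so Hoxc4, Hoxc5 and Hoxc6 have the same values there, as do Hoxc9, Hoxc10 and Hoxc11, and as do Hoxa9, Hoxa10 and Hoxa11. They are not separate measurements. Limma called 8 of 24 testable Hox genes higher and none lower, with a median log2 of 0.27 (2.74% of all gene ends tested were called higher and 3.29% lower). EdgeR with 12 libraries called 10 of the 37 higher and 3 lower. With a KO library of number 1 or number 3 left out of either line limma called no Hox gene. Without MC38 KO library 2 or B16 KO library 2 its count was 4 or 5. With any 1 KO library left out, edgeR with 12 libraries as the start still called 8 or 9 higher and 2 to 4 lower. Stricter islands leave out those below the 25th percentile of reads per kb of their library. On these, limma called 4 of 19 testable Hox genes higher, and its median log2 was −0.05. EdgeR with 12 libraries called 8 of the 37 higher and 4 lower on them. In the control libraries 15 Hox genes lay above and 12 below, and 25 of the 31 that were separated in KO were separated the same way in control.

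**Figure D3:**
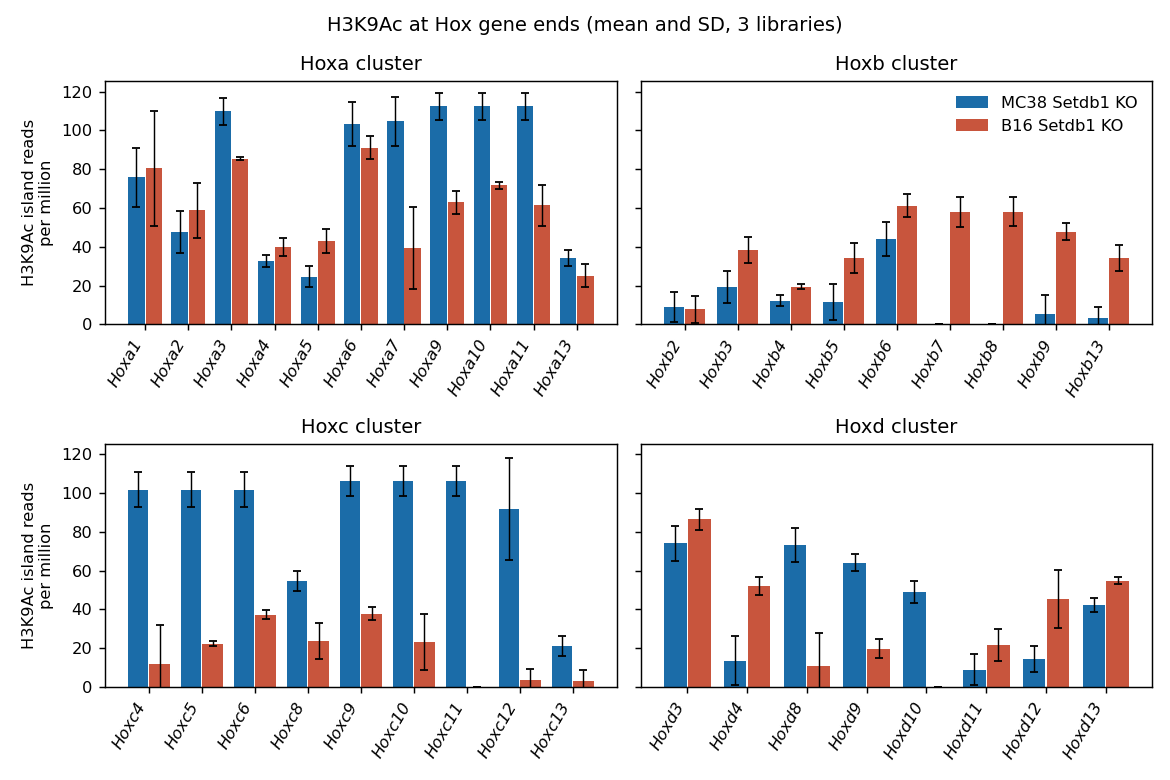
Mean H3K9Ac of the measured Hox genes in cluster order, in RPM (vertical axis, from 0), in MC38 Setdb1 KO (blue, left bar) and B16 Setdb1 KO (red, right bar), with the SD over 3 libraries. All 9 Hoxc genes stand higher in MC38, and 8 of 9 Hoxb genes stand higher in B16.

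Across the genome the difference between the lines was tested in 3 ways. With edgeR's quasi-likelihood test on the 6 KO libraries and the replicate number as a block, 0 of 30978 gene ends passed an adjusted p of 0.05, the smallest being 0.121, while 5450 had an unadjusted p under 0.05. DESeq2 with the same block called 3749 higher and 4562 lower in MC38 KO, and edgeR without the block 1436 higher and 1855 lower. With the spread estimated over all 12 H3K9Ac libraries, edgeR called 1746 of 31667 gene ends (5.51%) higher and 2111 (6.67%) lower in MC38 KO. Among the 19291 gene ends with islands in all 6 KO libraries, limma called 529 (2.74%) higher and 635 (3.29%) lower, and 438 and 505 of these were also called by edgeR with 12 libraries. The median size of the log2 difference was 1.03 over the limma calls and 0.25 over all gene ends tested. Fewer limma calls passed when 1 library was left out. Without MC38 KO library 1 or 3, or B16 KO library 1 or 3, none passed, and without MC38 KO library 2 or B16 KO library 2, 351 and 479 passed. With the replicate block, leaving out a library also takes its same-numbered partner out of the line difference. These fits thus rest on fewer pairs. They cannot tell the loss of a pair from dependence on a particular library, and neither was tested.

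The gene ends higher in MC38 KO with islands in all 6 KO libraries were led by Foxl1, a forkhead factor of gut mesenchyme. It had 101, 116 and 92.6 RPM in MC38 KO and 8.27, 12.4 and 10.3 RPM in B16 KO libraries (log2 3.27, SE 0.18, limma adjusted p = 0.015). S100a5, which encodes a calcium-binding protein, had 61.9, 84.6 and 86.3 RPM in MC38 KO and 18.3, 26.2 and 28.7 RPM in B16 KO libraries (log2 1.66, SE 0.13, limma adjusted p = 0.015), and its neighbour S100a4 has the same MC38 values from the same islands. Fkbp10, a collagen-folding enzyme, had 73.9, 74.9 and 82.1 RPM in MC38 KO and 31.7, 26.8 and 32.2 RPM in B16 KO libraries (log2 1.34, SE 0.12, limma adjusted p = 0.015). Over the whole Fkbp10 gene the lines overlapped, at 25.9, 22.6 and 21.4 RPM in MC38 KO and 22.6, 14.3 and 26.1 RPM in B16 KO libraries (edgeR adjusted p with 12 libraries = 0.570). Hoxc5, Hoxc6 and Hoxc9 complete the first 6.

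The gene ends lower in MC38 KO were led by Lbh, a transcription cofactor of limb and heart, with 26.1, 22.6 and 24.8 RPM in MC38 KO and 102, 91.8 and 84.9 RPM in B16 KO libraries (log2 −1.90, SE 0.12, limma adjusted p = 0.015). Thsd7a, a membrane protein with thrombospondin domains, had 20.7, 20.3 and 18.1 RPM in MC38 KO and 89.7, 78.4 and 79.8 RPM in B16 KO libraries (log2 −2.04, SE 0.13, limma adjusted p = 0.015). Bcas1, known from myelin-forming cells, averaged 29.8 ± 5.19 RPM in MC38 KO and 103 ± 5.99 RPM in B16 KO (SD, n = 3 each). Nr1h4, the bile acid receptor, averaged 29.4 ± 5.58 RPM in MC38 KO and 85.4 ± 12.7 RPM in B16 KO (SD, n = 3 each). Car14, a carbonic anhydrase, averaged 30.1 ± 5.67 RPM in MC38 KO and 91.3 ± 4.90 RPM in B16 KO (SD, n = 3 each). None of these groups overlapped.

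Chchd10, a mitochondrial protein gene, passed as well, but at its 3′ end, where MC38 KO had 21.4, 29.3 and 22 RPM and B16 KO 79.0, 94.0 and 83.7 RPM (log2 −1.81, limma adjusted p = 0.015). At its 5′ end, measured in a smaller table of genes with known strand and so on another RPM scale, MC38 KO had 51.3, 62.2 and 54.6 RPM and B16 KO 55.9, 43.9 and 54.3 RPM, which overlap. Of the limma calls whose strand was known, 515 were at the 5′ end and 281 at the 3′ end of the gene.

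Some gene ends had islands in 1 line only. At 982 gene ends (3.17% of those measured) all 3 MC38 KO libraries had islands and no B16 KO library did, and at 1465 (4.73%) all 3 B16 KO libraries had islands and no MC38 KO library did. Of these, 346 and 541 belonged to protein-coding genes, and edgeR with all 12 libraries called 618 and 913. The B16 KO library of each number was deeper than the MC38 KO library of that number, and the part of depth in these counts was not tested. The length under islands was nearly equal, at 441, 440 and 442 Mb in MC38 KO and 448, 443 and 437 Mb in B16 KO libraries (difference −1.59 Mb, exact two-sided permutation p = 0.7). Reads per kb of island, not scaled for depth, were lower in MC38 KO in all 3 pairs. They were 102, 92.8 and 64.4 against 174, 171 and 107 in B16 KO (difference −64.0, exact two-sided permutation p = 0.1, the smallest that 3 against 3 libraries allow). With nearly equal covered length, this value mostly restates the island reads of each library and does not measure the strength of acetylation.

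Ptgs2, the gene of the inducible cyclooxygenase COX-2, had 88.3, 90.8 and 82.3 RPM in MC38 KO libraries and no island in B16 KO (edgeR adjusted p with 12 libraries 0.000899). Its antisense neighbour Ptgs2os has the same values, since their starts share the region and the files do not separate strands. Omd, a small leucine-rich proteoglycan of bone, had 87.8, 115 and 94.0 RPM in MC38 KO libraries. Rreb1, a zinc finger factor of the Ras pathway, had 92.3, 84.4 and 65.1 RPM in MC38 KO libraries, and the linker histone gene H1f5 86.2, 78.3 and 57.0 RPM at its 3′ end. At these ends all were without an island in B16 KO and in B16 control libraries, and had islands in MC38 control libraries. Elsewhere in Rreb1 both lines had islands, and over the whole gene they overlapped, at 283, 337 and 232 RPM in MC38 KO and 248, 262 and 240 RPM in B16 KO libraries.

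On the B16 side the first 6 by the same rule were Tyrp1, described above, and 5 others. Cdh19, a cadherin of Schwann cell precursors, had 92.1, 101 and 86.1 RPM in B16 KO libraries and Sh3tc2, a gene of myelinating Schwann cells, 72.0, 86.8 and 82.4 RPM. Mdga2, a neural adhesion protein, had 97.2, 77.3 and 76.1 RPM in B16 KO libraries. Lama4, a laminin chain of vessel and nerve basement membranes, had 90.9, 84.1 and 91.2 RPM, and Pde10a, a phosphodiesterase, 94.6, 70.3 and 75.5 RPM. At these ends none had an island in an MC38 KO or MC38 control library. Over the whole gene MC38 KO libraries had islands in Pde10a, at 64.1, 31.4 and 68.0 RPM against 575, 624 and 543 RPM in B16 KO, and in Sh3tc2, at 13.1, 27.5 and 16.1 RPM against 102, 126 and 109 RPM in B16 KO, and MC38 KO library 3 had 4.62 RPM in Lama4. The ranking used the p of edgeR with 12 libraries and not function.

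Immune genes differed at single members, and the counts of their lists are to be read against the 14.6% of all measured gene ends that lay above and the 18.9% below. In the MHC class I list 2 of 14 lay above, 12 overlapped and none lay below. The share above is near that of all gene ends. EdgeR with 12 libraries called 3 of the 14 higher and none lower (5.51% and 6.67% over all gene ends). The summed levels did not overlap, at 656 to 733 RPM in MC38 KO and 554 to 635 RPM in B16 KO libraries. In the control libraries 4 lay above and none below. H2-D1, a classical class I heavy chain, had 55.6, 49.9 and 52.9 RPM in MC38 KO and 30.9, 33.2 and 34.0 RPM in B16 KO libraries (log2 0.68, limma adjusted p = 0.046), and Tap2, a peptide transporter subunit, had 49.5, 51.7 and 45.5 RPM in MC38 KO and 33.9, 30.4 and 31.8 RPM in B16 KO libraries (log2 0.60, limma adjusted p = 0.064). The light chain gene B2m overlapped. Among 32 measured interferon and nucleic acid sensing genes 4 lay above and 6 below, and limma called 1 lower, the interferon receptor gene Ifnar2, with 38.1, 29.4 and 34.3 RPM in MC38 KO and 77.2, 63.0 and 64.8 RPM in B16 KO libraries (log2 −1.0, adjusted p = 0.019).

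Of the chemokine and cytokine list 3 of 18 lay above and 2 below, again near the shares over all gene ends. Cxcl1, a neutrophil chemokine, had 58.0, 43.7 and 44.6 RPM in MC38 KO and 30.9, 23.6 and 25.9 RPM in B16 KO libraries (log2 0.85, limma adjusted p = 0.039). Cxcl11, an interferon-induced chemokine of T cells, had no island in MC38 KO and 42.8, 76.1 and 78.1 RPM in B16 KO libraries, and the alarmin gene Il33 had none in MC38 KO and 20.9, 19.3 and 25.2 RPM in B16 KO. Cd274, the gene of PD-L1, overlapped, with 43.5, 41.9 and 53.9 RPM in MC38 KO and 41.4, 46.5 and 41.0 RPM in B16 KO libraries. In the checkpoint list 3 of 12 lay above and 2 below, and limma called Tnfrsf14, the receptor for BTLA, higher (log2 0.68, adjusted p = 0.050, under 0.05 before rounding).

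Of the growth control genes none of 16 lay above and 5 lay below, where 14.6% of all measured gene ends lay above and 18.9% below. Met, the hepatocyte growth factor receptor, had 39.2, 32.5 and 29.2 RPM in MC38 KO and 90.1, 110 and 103 RPM in B16 KO libraries (log2 −1.57, limma adjusted p = 0.015). Tgfbr2, a TGF-beta receptor, had 39.0, 33.0 and 32.4 RPM in MC38 KO and 55.2, 68.1 and 65.1 RPM in B16 KO libraries (log2 −0.84, limma adjusted p = 0.040). Cdkn2a, Cdkn2b and Egfr had too few island reads at their ends to be measured there. Over the whole gene Egfr lay above in MC38 KO, with 5.63, 17.7 and 11.7 RPM against 2.26, 4.05 and 5.41 RPM in B16 KO libraries (edgeR adjusted p with 12 libraries = 0.164). Of 12 measured Wnt target genes 5 lay above and 3 below. Axin2, the feedback inhibitor of the pathway, had no island in MC38 KO and 44.2, 55.9 and 38.3 RPM in B16 KO libraries, Apcdd1, another inhibitor, had 57.5, 45.4 and 38.8 RPM in MC38 KO libraries and no island in B16 KO, and Ephb2, a crypt receptor, was called higher (log2 1.34, limma adjusted p = 0.043).

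Imprinted genes, expressed from 1 parental copy, had 2 of 19 measured members above and 9 below, where 14.6% of all measured gene ends lay above and 18.9% below. Peg10, a retrotransposon-derived gene, and its neighbour Sgce share a region without an island in MC38 KO and with 49.3, 79.5 and 67.1 RPM in B16 KO libraries. Plagl1, a zinc finger growth regulator, had 1.13, 0 and 0 RPM in MC38 KO and 53.4, 73.4 and 44.4 RPM in B16 KO libraries, and Mkrn3 had 24.6, 24.1 and 14.1 RPM in MC38 KO and no island in B16 KO. Limma called none of the 9 testable imprinted genes, with 3 at an unadjusted p under 0.05, and edgeR with 12 libraries called 2 of the 19 higher and 4 lower (5.51% and 6.67% over all gene ends). Of the 14 testable housekeeping genes limma called none, with 0 at an unadjusted p under 0.05, and edgeR with 12 libraries called none. Limma called none of the 20 testable H3K9 methylation genes, with 4 at an unadjusted p under 0.05. At gene ends edgeR with 12 libraries called 2 lower, the remodeller Atrx (adjusted p = 0.015) and the demethylase Kdm4a (adjusted p = 0.030). Over the whole gene the same fit did not call Kdm4a (adjusted p = 0.193), and its calls went both ways. There Atrx, Atf7ip, Cbx1, Pphln1 and Kdm3a were called lower, and Ehmt1, Suv39h2, Mphosph8 and Setdb1 higher in MC38 KO. Of the germline genes 1 of 12 lay below, Tex19.1, with no call.

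The line difference in Setdb1 KO cells was set beside that in control cells. Of the 982 gene ends with islands in MC38 KO only, 640 (65.2%) were MC38-only in the control libraries too, and they made up 60.7% of the MC38-only ends of the control. Of the 1465 with islands in B16 KO only, 964 (65.8%) were B16-only in the control libraries, 69.6% of the B16-only ends of the control. No gene end was line-specific in opposite directions. Over 18033 gene ends with islands in all 12 libraries, the log2 line differences of KO and control had a Pearson r of 0.759 across genes, which share their libraries and are not independent replicates, with SDs of 0.52 in KO and 0.55 in control. Of the 1052 limma calls among them, 1039 had the same sign in the control libraries. The difference between both line differences passed in edgeR with 12 libraries at 13 gene ends (0.0411%) in the positive and 15 (0.0474%) in the negative direction.

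**Figure D4:**
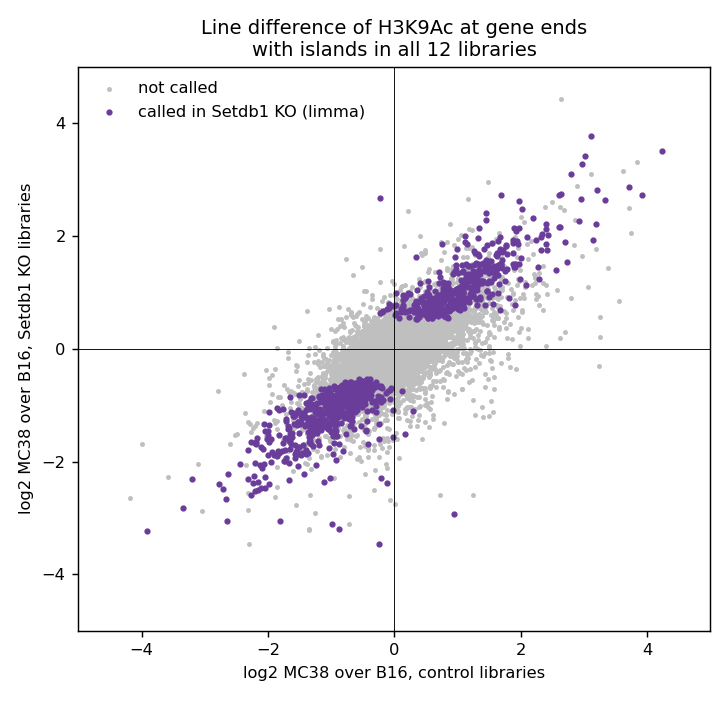
Log2 of MC38 over B16 H3K9Ac at the 18033 gene ends with islands in all 12 libraries, in Setdb1 KO libraries (vertical axis) against control libraries (horizontal axis). Purple points are the 1052 gene ends that limma called in the KO libraries, 1039 of which lie on the same side of 0 on both axes.

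The genome was also divided into 5 kb windows without regard to genes. At least 500 bp lay under islands in all 3 MC38 KO libraries and none in B16 KO at 7288 windows (3.60% of 202535 with any KO island), and the reverse held at 11179 (5.52%), against 75860 windows shared by all 6 libraries. Line-specific windows were poorer in gene ends: 7.41% of the MC38-only and 7.17% of the B16-only windows held the end of a protein-coding gene, against 21.7% of the shared ones. Of the MC38-only windows 57.6% and of the B16-only windows 60.6% were specific to the same line in control libraries, and 3 and 2 windows to the other line. EdgeR with all 12 libraries called 8450 of 201802 windows (4.19%) higher and 9999 (4.95%) lower in MC38 KO, and edgeR on the 6 KO libraries called none of 194745, with 24067 at an unadjusted p under 0.05.

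The longest MC38-only stretch was 145 kb at chr5:113085001-113230000, over Tmem211 and 2900026A02Rik, with 121, 127 and 114 kb under islands in MC38 KO libraries and none in B16 KO. The next were 65 kb at chr1:194750001-194815000 in Plxna2, a semaphorin receptor, and 65 kb at chr12:29960001-30025000 at Pxdn, a peroxidase of basement membranes. The longest B16-only stretch was 180 kb at chr11:89650001-89830000 in Ankfn1, with 154, 174 and 134 kb under islands in B16 KO libraries and none in MC38 KO, followed by 105 kb at chr11:89390001-89495000 in the same gene. The next covered 95 kb at chr7:107665001-107760000 over Ppfibp2 and Cyb5r2. Among stretches of windows called lower by edgeR with 12 libraries, 80 kb at chr7:88425001-88505000 lay over Rab38, the melanosome gene named above.

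Chromosomes differed in how their line-specific windows were divided. Chromosome 6 had 1.94% of its island windows in MC38 KO only and 9.01% in B16 KO only, and chromosome 12 had 1.78% and 8.08%. Chromosome 19 had 6.77% in MC38 KO only and 2.76% in B16 KO only, and chromosome 13 had 7.78% and 4.39%. On the X chromosome 4.91% were MC38-only and 12% B16-only. Its gene ends with islands in all 6 KO libraries leaned the other way, with a median log2 line difference of 0.11. Among them limma called 17 higher and 2 lower in MC38 KO. The median log2 line difference over gene ends with islands in all 6 KO libraries was −0.23 on chromosome 6 and 0.29 on chromosome 19, where limma called 70 gene ends higher and 11 lower. In the control libraries, over gene ends with islands in all 12 libraries, the medians were −0.17 on chromosome 6 and 0.27 on chromosome 19. Copy number of the chromosomes was not analysed here, and its part in these values was not tested.

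**Figure D5:**
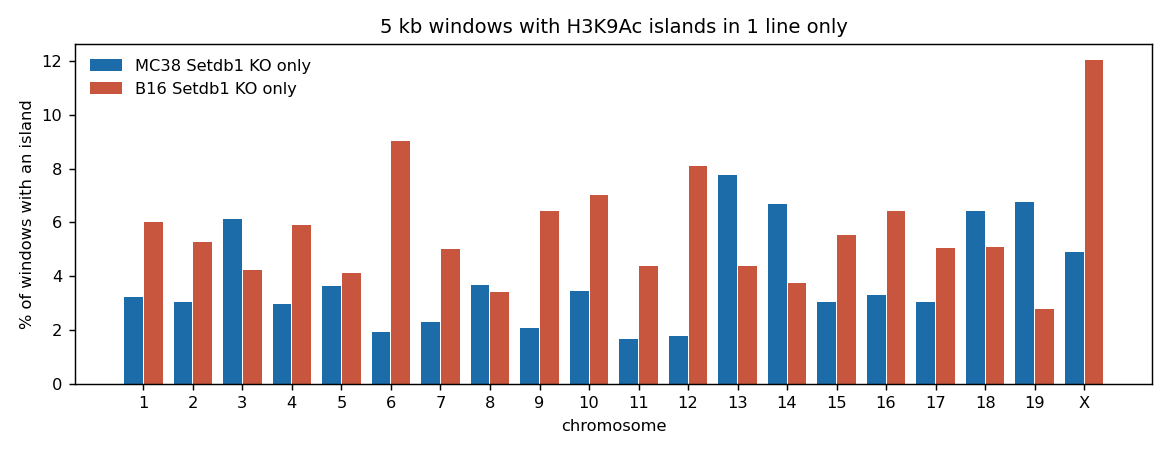
Percent of the 5 kb windows with any KO island (vertical axis, from 0) that had islands in MC38 Setdb1 KO libraries only (blue, left bar) or in B16 Setdb1 KO libraries only (red, right bar), by chromosome. B16-only windows reach 9.01% on chromosome 6 and 12% on X, and MC38-only windows 7.78% on chromosome 13.

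H3K9me3 islands of the same KO cells were looked up on the same gene ends. The H3K9me3 reads given below are not scaled between libraries, which held 18635578 to 45419584 island reads. Gene ends acetylated in MC38 KO only had H3K9me3 islands in all 3 MC38 KO libraries at 1.63% and in all 3 B16 KO libraries at 14.1% of them. Gene ends acetylated in B16 KO only had them at 3.82% in MC38 KO and at 8.53% in B16 KO. Over all measured gene ends the shares were 1.17% in MC38 KO and 5.76% in B16 KO, and over those acetylated in all 6 libraries 0.27% and 2.16%. Both kinds of line-specific gene ends thus had larger shares than all measured gene ends, in either line. The measured gene ends include the 19291 acetylated in all 6 libraries, whose shares were low. The comparison therefore does not set line-specific ends against other ends that lacked an island in some library. Mdga2, whose end was acetylated in B16 KO only, had 216, 173 and 193 H3K9me3 island reads at that end in MC38 KO libraries and none in B16 KO. Over the whole Mdga2 gene both lines had H3K9me3, with 74945, 36711 and 24212 island reads in MC38 KO and 4847, 3157 and 3744 in B16 KO libraries. At the measured end Tyr had H3K9me3 reads in MC38 KO library 1 only, and Ptgs2, Omd and Rreb1 had none in any KO library. Over the whole gene Tyr had 884, 442 and 0 H3K9me3 island reads in MC38 KO and none in B16 KO libraries, and Rreb1 had none in MC38 KO and 210, 642 and 684 in B16 KO libraries. EdgeR on the 6 H3K9me3 KO libraries called none of 17920 gene bodies between the lines, with 1065 at an unadjusted p under 0.05, and without the replicate block it called 504 higher and 1215 lower in MC38 KO.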

How the data were processed

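The values are read counts in islands that the authors deposited, 1 file per library, with no scaling between libraries. Island bounds fall on a grid of 200 bp. Per the submitters' processing notes, cutadapt (no version), Bowtie2 2.1.0, SAMtools 0.1.8, SICER 1.1, deepTools 3.1.1 and build mm10 were used. Filters on reads and the background used for islands are not given in the sources used here. Each H3K9Ac library rests on 28453371 to 78087809 island reads, and each H3K9me3 KO library on 18635578 to 45419584.

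Island reads were apportioned by overlap to 5 kb windows, gene bodies and gene ends (2 kb on both sides) of 49554 RefSeq genes (GRCm38.p6) on chromosomes 1 to 19 and X, and rounded. The gene table gives no strand, so the end with more H3K9Ac over 12 libraries was used. It was the 5′ end at 61.7% of the 26794 genes whose strand a promoter table gives. Counts were tested with edgeR 4.0.16 (quasi-likelihood, TMM, mean of at least 10 reads, Benjamini-Hochberg) with the replicate number as a block. That fit called nothing on 6 libraries. EdgeR with all 12 libraries was therefore used for genes with islands in 1 line, a choice made after seeing the data. Limma 3.58.1 was used on log2(RPM + 0.5) for gene ends with islands in all 6, and its log2 changes are on that scale. DESeq2 1.42.0 was an alternative. Adjusted p-values name their tool. Single values per library were compared with exact permutation tests.

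The comparison was defined with the replicate number as a block. Same-numbered MC38 and B16 KO libraries deviated together (r of 0.136, 0.170 and 0.148 over 19291 gene ends, other pairs −0.146 to −0.008). Deviations were taken from the mean of each line, so positive same-number values push the other pairs below 0, and the contrast between them is not independent evidence. The scripts were tested on simulated data. Named genes, with predicted genes, small RNAs and pseudogenes left out, were, per direction, the 6 lowest in p among calls of at least 1 in log2 size without overlap, with up to 4 members of each list, every measured melanocyte and gut gene considered, and the 3 longest runs of windows. Further list members were named after their values were seen. The members and the 17 lists were chosen with earlier results of these data known. Interaction calls name the 6 smallest p. H3K9me3 control libraries and input samples were not used here, and a few genes that these rules name are not reported here.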

Additional observations from a re-analysis of the deposited data

Results flagged for a closer look

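At 28 gene ends the difference between the lines was not the same in Setdb1 KO and control libraries, by edgeR's interaction term over 12 libraries. With predicted genes, small RNAs and pseudogenes left out 7 of these remained, and the 6 with the smallest p among them are given here. At each of these genes 1 group had no island in any of its 3 libraries. H2-T24, a non-classical MHC class I gene, averaged 54.1 RPM in MC38 KO and 32.1 RPM in B16 KO libraries, against 54.3 RPM in MC38 control and no island in B16 control libraries (adjusted p = 0.00913). Faap20, a gene of the Fanconi anaemia pathway, averaged 45.0 RPM in MC38 KO and 44.4 RPM in B16 KO, against 34.3 RPM in MC38 control and no island in B16 control (adjusted p = 0.0134). Dnajc18, a co-chaperone gene, averaged 35.8 RPM in MC38 KO and 18.6 RPM in B16 KO, against 34.1 RPM in MC38 control and no island in B16 control (adjusted p = 0.0256).

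Acot1, an acyl-CoA thioesterase gene, averaged 11.8 RPM in MC38 KO and 38.9 RPM in B16 KO, against no island in MC38 control and 40.4 RPM in B16 control (adjusted p = 0.0336). Batf2, a transcription factor gene, averaged 30.9 RPM in MC38 KO and 16.8 RPM in B16 KO, against no island in MC38 control and 13.5 RPM in B16 control (adjusted p = 0.0336). Akap7, an anchoring protein gene, had no island at the measured end in MC38 KO and averaged 37.3 RPM in B16 KO, against 14.9 RPM in MC38 control and 45.2 RPM in B16 control (adjusted p = 0.0336). Over the whole Akap7 gene MC38 KO libraries had 110, 138 and 136 RPM and B16 KO libraries 281, 345 and 223 RPM. The interaction compares all 4 groups, so a gene end that passed can differ through any of them.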

How the results depend on the processing

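Gene ends called in KO numbered 0 with the replicate block, 3291 without it, 8311 with DESeq2 and 3857 with all 12 libraries. Gene bodies called numbered 0, 4637, 11246 and 6697, and 5 kb windows 0, 20067, 57725 and 18449, in the same order. In control libraries the counts were 0 with the block, 3357 without it and 8843 with DESeq2. H3K9me3 gene bodies gave 0 with the block and 1719 without. The interaction gave 28 calls, and 1062 with DESeq2. For the edgeR fits on 6 libraries, leaving out any 1 KO library, another scaling, filter, flank or stricter islands left the count at 0. With a library left out the blocked fit also rests on fewer pairs, so a count of 0 says little there.

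Leaving out 1 KO library in turn moved the 1164 limma calls to between 0 and 479. Leaving out 1 of the 12 libraries moved the 3857 calls of edgeR with 12 libraries to between 1839 and 3433. The cause was not tested. Among the named genes, no direction turned in 204 gene and setting pairs of edgeR with 12 libraries, all still called, nor among those of limma, of which 82 kept and 48 lost their call. The difference in covered length was −1.59 Mb, but 0.187 Mb on stricter islands and from −4.54 to 1.24 Mb when 1 library was left out. Line-only windows numbered 18467 at 500 bp and 4327 at 2500 bp. Where no island was called, depth sets what could be seen, and the B16 KO libraries were the deeper ones.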

Other observations

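At 13 of the 1052 gene ends that limma called in KO libraries and that had islands in all 12 libraries, the mean line difference in the control libraries had the opposite sign. Those with established protein-coding symbols were chosen here after their values were seen. The centromere gene Incenp differed by 0.63 in KO and −0.22 in control on the log2 scale, the cyclin gene Ccnf by 0.78 and −0.07, the splicing factor gene Mfap1a by 0.67 and −0.17, and the transporter gene Slc35b3 by 0.73 and −0.09. Dpy30, a subunit of H3K4 methyltransferases, differed by −0.74 in KO and 0.13 in control.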
